A study of Mus musculus with 139 samples.

Results

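Ribosome biogenesis factors are the proteins that transcribe, modify, cut and fold precursor ribosomal RNA (rRNA) and assemble it with ribosomal proteins. A list of 49 such genes, taken by gene name from every expression table of the series, was followed after loss of EXOSC2, a core subunit of the RNA exosome, in mouse cells. All 49 names were found among the 52885 genes of each table. The genes were set in 5 classes by the known role of their products, which held 9 components or chaperones of small nucleolar ribonucleoproteins (snoRNPs), 5 abundant nucleolar proteins, 6 genes of RNA polymerase I and its factors, 18 genes of the small subunit processome and small subunit maturation, and 11 genes of large subunit assembly.

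Ribosomes are made mostly in the nucleolus. RNA polymerase I transcribes a long rRNA precursor there, snoRNPs guide its chemical modification, the small subunit processome folds and cleaves its early part, and other factors assemble the large subunit before both are exported. The RNA exosome is itself known to trim rRNA precursors, and the transcription factor Myc is known to raise the transcription of many ribosome biogenesis genes, often through the E-box CACGTG. Fast-growing cells such as embryonic stem cells (ESCs) carry much of the messenger RNA (mRNA) of these factors.

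The cells were mouse ESCs of the line AID-FBEXOSC2 in serum with LIF, in which EXOSC2 is fused to an auxin-inducible degron, so that 0.5 mM of the auxin indole-3-acetic acid (IAA) degrades it. Every group carried the degron, and 0 h groups received no IAA. A control line without the degron given IAA was not analysed here, so effects of IAA itself and of the loss of EXOSC2 cannot be told apart. Total RNA depleted of rRNA was measured in ESCs at 0, 4 and 20 h of IAA. Nascent RNA, labelled for 10 min with 1 mM 5-ethynyluridine (EU), was measured at 0, 1, 2 and 4 h. Lysates of whole cells (wcl), cytosol (cyto), nucleoplasm (np) and an insoluble chromatin fraction (chrRNP) were compared at 4 and 0 h. RNPmesh is what stays insoluble when nuclei are digested with DNase I and then extracted with urea, NP40 and salt, and its polyadenylated RNA was taken at 0, 4 and 12 h. Polyadenylated RNA also came from cells kept for 24 h with 2 µM retinoic acid and no LIF (RAD1) and from cells given no retinoic acid (RAD0), each at 0, 4 and 20 h of IAA, whose timing relative to retinoic acid the labels do not give. Fibroblasts grown from the same ESCs through 10 days in 1 µM retinoic acid and picked by fast attachment (iMEFs) were measured as rRNA-depleted total RNA at 0, 4 and 20 h. Each of these groups had 2 replicate libraries. The labels do not say whether these came from separate cultures, so p-values measure the spread between libraries, which may be technical. Nuclear lysates of 12 and 0 h were spun through sucrose, with a single library for each of the fractions F2 to F9. Peaks of H3K27ac, a histone mark of active promoters and enhancers, were given for 4 and 0 h.

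The tables held FPKM (fragments per kilobase of transcript, scaled to the fragments mapped in the library), or RPKM over whole gene spans for nascent RNA, and the read depth of the FPKM libraries was not given in the sources used here. Changes below are log2 differences of group means of value + 1 with the standard error (SE) of a limma fit over all genes of the table, and a gene was called at a Benjamini-Hochberg adjusted p under 0.05. Counts at an unadjusted p under 0.05 are given without the share of all genes at that threshold, so they do not set members apart. The shares of all genes that stand beside such counts are of adjusted calls. Most genes named below were picked for large called changes, so a lack of overlap between their libraries adds no support. All 49 genes reached 1 FPKM in each FPKM library, while 44 to 48 reached 1 RPKM in the nascent ones. The highest single transcript took 15.2% of the summed value in ESC 4 h replicate 1 and 42.2% in RNPmesh 0 h replicate 2. In ESCs the median over tested genes of the value divided by the gene's mean in the table was 1.36 and 1.26 in the 0 h libraries, 0.926 and 1.08 at 4 h, and 0.684 and 0.659 at 20 h. The 4 chrRNP libraries had ratios of 0.374 to 0.641 in the table of fractions, against 0.834 to 1.34 in its other libraries. All 8 ESC markers reached 1 FPKM in every ESC, RAD0 and RAD1 group, and all 10 fibroblast markers did in iMEFs, where 1 of the 8 ESC markers did. Exosc2 mRNA, which the degron does not act on, stood at 0.989 ± 0.0728 FPKM at 20 h of IAA, against 3.25 ± 0.711 FPKM at 0 h in ESCs (SD, n = 2 each).

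The members were among the well expressed genes of untreated ESCs. Their median was 42.6 FPKM at 0 h, between 10.1 FPKM for Polr1e, a subunit of RNA polymerase I, and 354 FPKM for Npm1, the abundant nucleolar protein nucleophosmin. All 49 lay above the median of the genes with at least 1 FPKM, 7.79 FPKM. In untreated iMEFs, whose table was normalized separately, their median was 11.7 FPKM and 34 of the 49 lay above the corresponding median of 7.56 FPKM. FPKM are scaled to transcript length, so levels can be set side by side within a table.

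Promoters of 43 of the 49 members were found in a RefSeq table of the build GRCm38.p6 (250 bases before to 50 bases after the gene start). The E-box CACGTG, which reads the same on both strands, was present in 9 of these 43 promoters (20.9%), in 12.6% of the 8099 promoters of protein-coding genes tested in ESC total RNA and in 8.09% of all 27025 promoters of the table. A wider set of E-boxes, which added the letters CATGTG and the letters of another variant, CACGCG, on either strand, was present in 26 of the 43 members (60.5%), in 37.2% of the tested coding genes and in 30.9% of all. Promoters of 4 members with CACGTG are shown because they stand for 3 classes and because Utp20 moved differently from the others in the results that follow. They are Nop2 at chr6:125131633-125131932 on the plus strand, Mybbp1a at chr11:72441077-72441376 on the plus strand, Wdr43 at chr17:71615965-71616264 on the plus strand and Utp20 at chr10:88826765-88827064 on the minus strand, written 5′ to 3′ on the strand of the gene, with the E-box in capitals.
Nop2: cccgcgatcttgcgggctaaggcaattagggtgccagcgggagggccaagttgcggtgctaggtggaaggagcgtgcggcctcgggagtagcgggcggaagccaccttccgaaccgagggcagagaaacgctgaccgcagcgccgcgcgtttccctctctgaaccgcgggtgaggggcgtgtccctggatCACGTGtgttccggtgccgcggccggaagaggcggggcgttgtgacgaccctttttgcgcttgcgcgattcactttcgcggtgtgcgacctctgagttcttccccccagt
Mybbp1a: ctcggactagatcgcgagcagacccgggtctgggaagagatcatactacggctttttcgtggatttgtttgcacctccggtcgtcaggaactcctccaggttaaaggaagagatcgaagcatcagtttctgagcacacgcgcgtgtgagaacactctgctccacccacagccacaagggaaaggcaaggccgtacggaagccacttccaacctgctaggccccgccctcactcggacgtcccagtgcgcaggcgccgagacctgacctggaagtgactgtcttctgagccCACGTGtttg
Wdr43: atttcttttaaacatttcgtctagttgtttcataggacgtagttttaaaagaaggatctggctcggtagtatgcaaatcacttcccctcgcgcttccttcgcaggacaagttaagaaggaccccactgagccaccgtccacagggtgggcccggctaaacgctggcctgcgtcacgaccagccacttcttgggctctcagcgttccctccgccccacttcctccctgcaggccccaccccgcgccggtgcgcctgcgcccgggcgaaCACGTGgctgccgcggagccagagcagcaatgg
Utp20: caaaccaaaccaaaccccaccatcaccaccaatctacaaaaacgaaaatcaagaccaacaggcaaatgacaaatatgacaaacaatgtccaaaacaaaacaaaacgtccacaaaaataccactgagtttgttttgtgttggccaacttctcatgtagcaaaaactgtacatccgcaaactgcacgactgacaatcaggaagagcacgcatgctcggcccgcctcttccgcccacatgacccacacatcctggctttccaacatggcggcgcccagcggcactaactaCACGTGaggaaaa
The first base of the E-box lay 60 bases before the RefSeq start in Nop2, at position -60, and after the start in Mybbp1a (40), Wdr43 (17) and Utp20 (37). Nop2 encodes an rRNA methyltransferase of large subunit assembly, Mybbp1a a nucleolar protein that binds Myb and represses RNA polymerase I, Wdr43 a processome component and Utp20 a very large processome scaffold. A match of these letters is a description and shows no binding.

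H3K27ac peaks lay within 1000 bases of the start of 40 of the 43 members at 4 h of IAA (93%) and of 37 at 0 h (86%). Among the 8099 tested coding genes the shares were 73.9% at 4 h and 72.9% at 0 h. The lists held 20449 peaks at 4 h and 16239 at 0 h. The 0 h list gives only the time. Separate 0 h samples were made as controls for 4 and 20 h, so that list may not be matched to 4 h. The 3 members with a peak at 4 h only were Polr1e, Heatr1, a processome component, and Rrp9, a protein of the snoRNP that guides early cleavages, and 0 members had a peak at 0 h only. Among the 8099 tested coding genes 395 had a peak at 4 h only and 317 at 0 h only. Ddx10, Noc4l and Nolc1 had none at either time. Nop2, Mybbp1a, Wdr43 and Utp20 had one at both times.

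In total RNA of ESCs the members were lower after IAA in every class, and most clearly at 20 h. At 20 h, 47 of 49 members fell, where 67.8% of all 12461 tested genes fell and 9.47% rose. The median change was -1.57 for the members and -0.76 for all genes. At 4 h, 20 of 49 members fell, where 21.2% of all genes fell and 4.47% rose, and the medians were -0.43 for the members and -0.31 for all genes. Between 20 and 4 h, 47 of 49 fell, where 48.6% of all genes fell and 7.86% rose, with medians of -1.10 for the members and -0.43 for all genes. The largest falls of each class in that interval were those of Nolc1 (-1.83), Tcof1 (-1.67), Npm1 (-1.60), Noc2l (-1.50) and Nat10 (-1.37). After libraries were rescaled to a common median gene, which removed the -0.76 shift, 45 of 49 members still fell at 20 h, where 27.8% of all genes did, with a median of -0.69. For the other comparisons, counts after rescaling are given without the matching share of all genes, so they do not set members apart from other genes. The 8 ESC markers summed to 1717 to 1774 FPKM at 0 h, 1246 to 1520 at 4 h and 476 to 524 at 20 h, and the 9 epithelial and trophoblast markers to 139 to 153, 102 to 123 and 173 to 175 FPKM at the same times. Their part in the members' change was not tested. In bulk RNA, fewer cells that express a gene and less RNA per cell cannot be told apart.

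The snoRNP class fell as a whole at 20 h, with 9 of 9 members called and a median of -1.77. Nolc1, a chaperone that shuttles snoRNPs to the nucleolus (chr19:46075863-46085530, mm10), had 51.6 and 47.5 FPKM at 0 h, 29.9 and 36.9 at 4 h and 8.47 and 8.74 at 20 h. The values of the 3 times did not overlap, and the change at 20 h was -2.39 ± 0.14 (SE, adjusted p = 7.71e-05). Nop56, which scaffolds box C/D snoRNPs (chr2:130274430-130279313), had 139 and 127 FPKM at 0 h, 69.1 and 84.0 at 4 h and 45.6 and 45.0 at 20 h. It had the largest called fall of its class at 4 h, -0.79 ± 0.14 (adjusted p = 0.0193), and fell by 1.53 (SE 0.14) at 20 h. Fbl, the ribose methyltransferase of the same snoRNPs, changed by -1.60 ± 0.17 at 20 h, and Dkc1, the pseudouridine synthase of box H/ACA snoRNPs, by -1.78 ± 0.12.

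Abundant nucleolar proteins fell in 5 of 5 cases at 20 h and in 3 of 5 at 4 h. Npm1 (chr11:33152287-33163206) had 374 and 334 FPKM at 0 h, 238 and 310 at 4 h and 88.5 and 88.9 at 20 h, a change of -1.98 ± 0.16 at 20 h (adjusted p = 0.000127). Its values at 4 h lay below those at 0 h without being called. Gnl3, the GTPase nucleostemin, had the largest fall of this class at 4 h, with 60.2 and 76.6 FPKM against 116 and 106 FPKM at 0 h (-0.70 ± 0.15, adjusted p = 0.0295).

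In the RNA polymerase I class 6 of 6 fell at 20 h and 2 of 6 at 4 h. Tcof1, the treacle protein that recruits the polymerase and its factor UBF, had 6.36 and 6.81 FPKM at 20 h, against 31.7 and 29.1 FPKM at 0 h (-2.05 ± 0.12, adjusted p = 7.71e-05). Polr1c, a subunit shared by RNA polymerases I and III, had the largest called fall at 4 h, with 47.0 and 59.8 FPKM against 83.8 and 84.5 FPKM at 0 h (-0.66 ± 0.15, adjusted p = 0.0299). Polr1e showed the smallest change of the class at 20 h, -0.92.

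Of the 18 genes of the small subunit class 16 fell at 20 h, and 6 at 4 h. Nat10, the rRNA acetyltransferase, had 13.1 and 11.5 FPKM at 20 h, against 46.9 and 41.5 FPKM at 0 h (-1.77 ± 0.13, adjusted p = 0.000114). Wdr43 led at 4 h, with 31.6 and 37.5 FPKM against 57.6 and 56.0 FPKM at 0 h (-0.71 ± 0.13, adjusted p = 0.0205). The 2 members that were not called at 20 h both belong to this class. Utp3, a processome component, had 17.4 and 16.8 FPKM at 0 h, 16.5 and 21.2 at 4 h and 14.9 and 13.3 at 20 h, a change of -0.26 ± 0.15 at 20 h (adjusted p = 0.145). Utp20 (chr10:88746607-88826804) had 26.1 and 25.0 FPKM at 0 h, 21.3 and 26.3 at 4 h and 21.0 and 21.6 at 20 h, a change of -0.25 ± 0.13 at 20 h (adjusted p = 0.125). Relative to the median gene, that is after rescaling, both rose at 20 h, Utp3 by 0.65 (adjusted p = 0.00137) and Utp20 by 0.67 (adjusted p = 0.000733).

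All 11 genes of large subunit assembly fell at 20 h, with a median of -1.58, and 6 fell at 4 h. Rrp1b, a factor that also binds protein phosphatases in the nucleolus, had 5.80 and 5.78 FPKM at 20 h, against 26.9 and 26.2 FPKM at 0 h (-2.02 ± 0.13, adjusted p = 9.14e-05). Nop2 had 50.4 and 58.2 FPKM at 4 h, against 91.7 and 86.0 FPKM at 0 h (-0.70 ± 0.13, adjusted p = 0.0223).

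**Figure D1:**
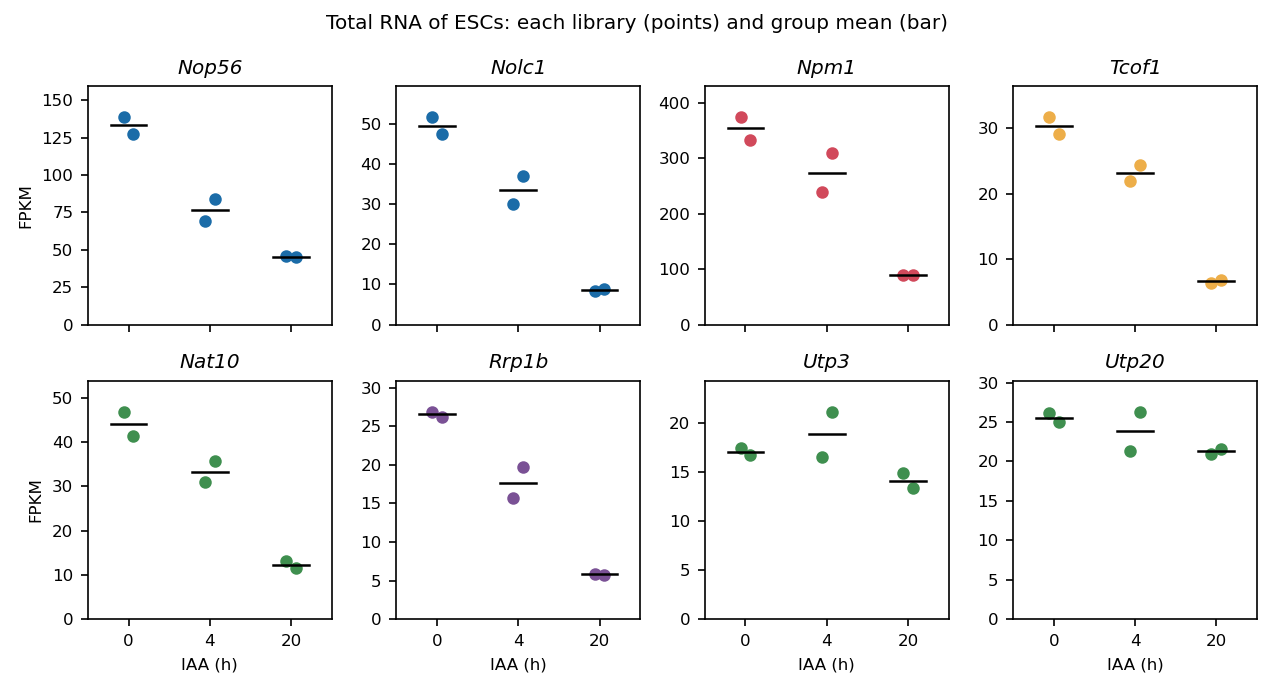
Total RNA of ESCs at 0, 4 and 20 h of IAA for 8 members (x axis, hours; y axis, FPKM from 0). Points are single libraries and bars are group means of 2 libraries. Nolc1 stood at 8.47 and 8.74 FPKM at 20 h, while Utp3 and Utp20 stood at 13.3 to 21.6 FPKM at 20 h.

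The count at 4 h in ESCs depended on single libraries. It was 0 of 49 when either 0 h library or ESC 4 h replicate 1 was left out and 41 when ESC 4 h replicate 2 was left out, and it was 3 after rescaling. The count of 47 at 20 h was the same whichever library was left out.

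Other genes of the pathway moved in the same direction. Of 91 tested further ribosome biogenesis genes 90 fell at 20 h (median -1.28), where 67.8% of all genes fell, and 27 at 4 h (median -0.39), where 21.2% did. The smallest p-values at 20 h belonged to Senp3, a nucleolar SUMO protease (-2.23, adjusted p = 7.71e-05), Ppan, a large subunit factor (-1.74), and Pdcd11, a processome scaffold (-1.75). In the network of Myc and Max 8 of 9 tested genes fell and 1 rose at 20 h, where 67.8% of all genes fell and 9.47% rose. Mycn, a Myc family transcription factor, had 51.8 and 45.4 FPKM at 0 h, 27.2 and 32.6 at 4 h and 8.25 and 7.57 at 20 h, with changes of -0.69 ± 0.14 at 4 h (adjusted p = 0.0253) and -2.48 ± 0.14 at 20 h (adjusted p = 7.71e-05). Myc had 15.0 and 14.1 FPKM at 0 h, 7.47 and 9.90 at 4 h and 2.95 and 3.31 at 20 h, a change of -1.91 ± 0.15 at 20 h (adjusted p = 0.000117). Members with the CACGTG box had a median change of -1.47 at 20 h (9 promoters), against -1.63 in members without it (34 promoters). Whether Myc or Mycn takes part in the fall of the members was not tested.

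Few members were called in nascent RNA, and a missing call there does not show that a gene did not change. At 1 and 2 h of IAA 0 of 48 tested members fell or rose in limma, with 0 and 4 at an unadjusted p under 0.05, where 0.0451% of all 8876 tested genes rose at 1 h and 0.0113% at 2 h, and 0% fell. At 4 h 0 members fell, where 0.338% of all genes fell, and 1 member rose, where 1.57% of all genes rose. At 4 h 12 members had an unadjusted p under 0.05 and the median was -0.22, against -0.03 for all genes. With limma-voom on recovered whole reads, 0 members were called at 1 h and 0 fell and 1 rose at 2 h, while at 4 h Ncl (-0.34, adjusted p = 0.00153) and Npm1 (-0.49, adjusted p = 0.002) fell and 1 member rose. The shares above are of adjusted limma calls, and the share of all genes called by limma-voom is not given here. The limma-voom calls therefore do not set members apart. Ncl encodes nucleolin, an abundant protein of the nucleolus. Nop10, a small H/ACA snoRNP protein, had the lowest change at 4 h, with 0.928 and 2.73 RPKM against 11.4 and 11.1 RPKM at 0 h, and was not called (-2.19 ± 0.43, adjusted p = 0.0811). Noc4l, at 0.249 and 0.169 RPKM at 4 h and 0.331 and 0.0747 RPKM at 0 h, was too low to be tested.

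The member that rose in nascent RNA was Utp20. It had 2.39 and 2.52 RPKM at 0 h, 3.23 and 2.87 at 1 h, 3.35 and 3.80 at 2 h and 5.15 and 5.90 at 4 h. No group overlapped the one before it, although the lower value at 2 h lay close to the higher one at 1 h. The change at 4 h was 0.92 ± 0.12 (adjusted p = 0.0344), and 1.21 (adjusted p = 2.14e-07) with limma-voom. The limma call ended without any of the 4 libraries of the contrast, with changes of 0.83 to 1.00 and adjusted p = 0.12 to 0.142.

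Subcellular fractions of ESCs were compared at 4 h of IAA. In np 11 of 49 members fell, where 23.4% of all 14069 tested genes fell and 7.43% rose, and all 49 changes were negative (median -0.49, against -0.29 for all genes). The count of calls lay near the share of all genes. The share of all genes with a negative change is not given here. Median ratios to the gene's mean in the table were 1.004 and 1.075 in the np libraries at 0 h, against 0.834 and 0.875 at 4 h. The part of this shift of whole libraries in the members' changes was not tested. Nop56 had 100 and 95.4 FPKM at 4 h, against 206 and 212 FPKM at 0 h (-1.08 ± 0.21, adjusted p = 0.00372). Nop2 had 53.9 and 54.3 FPKM at 4 h, against 98.9 and 107 FPKM at 0 h (-0.91 ± 0.22, adjusted p = 0.0112). Neither gene overlapped between the times. The largest called falls of the other classes were those of Wdr43 (36.1 and 37.8 FPKM at 4 h, against 60.9 and 62.5 FPKM at 0 h, -0.72), Gnl3 (65.5 and 69.7 FPKM at 4 h, against 107 and 114 FPKM at 0 h, -0.70) and Tcof1 (19.1 and 18.6 FPKM at 4 h, against 26.5 and 29.0 FPKM at 0 h, -0.53). Leaving out single libraries brought the count to between 1 and 3.

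In the whole-cell lysate Nop56 (69.4 and 78.9 FPKM at 4 h, against 124 and 134 FPKM at 0 h, adjusted p = 0.0258) and Nop2 (49.2 and 55.1 FPKM at 4 h, against 85.4 and 84.6 FPKM at 0 h, adjusted p = 0.0495) were the 2 members that fell, where 13.5% of all genes fell and 5.74% rose, and the count was 0 when any library was left out. In cyto 0 members fell and 0 rose in limma, with 2 at an unadjusted p under 0.05, where 1.41% of all genes fell and 5.04% rose. Utp3 had 35.2 and 35.8 FPKM in cyto at 4 h, against 19.2 and 21.3 FPKM at 0 h, without overlap (0.78 ± 0.24, adjusted p = 0.086). After rescaling it was called higher in cyto (0.72, adjusted p = 0.00713) and in wcl (0.48, adjusted p = 0.0342). In chrRNP 0 members fell and 1 rose, where 0.867% of all genes fell and 7.95% rose, and 48 of the 49 were not called. At an unadjusted p under 0.05 there were 7 members. The shares of all genes in this paragraph are of adjusted calls and do not match the unadjusted counts. The one that rose was again Utp20, with 20.1 and 22.7 FPKM at 4 h, against 11.3 and 13.7 FPKM at 0 h (0.74 ± 0.15, adjusted p = 0.0089), or 0.43 after rescaling (adjusted p = 0.0186). That call ended without chrRNP 4 h replicate 2 (0.65, adjusted p = 0.087). Tests of the difference between fractions called 0 members in either direction for chrRNP minus cyto, with 1 at an unadjusted p under 0.05, where 0.0426% of all genes were called lower and 0.0924% higher. For np minus cyto they also called 0 members, with 12 at an unadjusted p under 0.05, where 0.583% were called lower and 0.419% higher. The result for chrRNP minus cyto depended on chrRNP 0 h replicate 2, and the share of all genes called without that library is not given here. The median ratio to the gene's mean in the table was 0.374 in chrRNP 0 h replicate 1 and 0.555 in replicate 2.

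In untreated cells the members' mRNA was lower in chrRNP than in the cytosol for 48 of 49 members, where 63.4% of all genes were lower and 14.3% higher, with medians of -1.70 and -0.88. Fbl had 2.53 and 5.79 FPKM in chrRNP, against 34.9 and 33.01 FPKM in cyto (-2.84 ± 0.28, adjusted p = 5.3e-06). The other classes were led by Nop16, a large subunit factor (5.40 and 12.4 FPKM in chrRNP, against 61.5 and 60.6 FPKM in cyto, -2.74), Polr1c (15.9 and 30.8 FPKM in chrRNP, against 131 and 130.2 FPKM in cyto, -2.51), Nob1, the nuclease of the last small subunit cleavage (5.29 and 9.57 FPKM in chrRNP, against 37.8 and 32.8 FPKM in cyto, -2.15), and Mybbp1a (18.4 and 29.3 FPKM in chrRNP, against 98.9 and 73.7 FPKM in cyto, -1.83). In each of them the fractions did not overlap. Polr1a, the largest subunit of RNA polymerase I, had 12.0 and 12.3 FPKM in chrRNP, against 14.2 and 13.3 FPKM in cyto (-0.16 ± 0.11, adjusted p = 0.198). After rescaling, the split was 29 lower and 10 higher, and Polr1a, Ncl (0.72), Utp20 (0.68) and the helicase gene Ddx10 (0.63) were the highest of the 10. The other 6 were Nop56, Nop58, Heatr1, Nat10, Tsr1 and Wdr12. The shares of all genes after rescaling are not given here, for chrRNP or for np. In np, 18 members were lower than in cyto and 4 higher, where 33.8% of all genes were lower and 28% higher. The 4 were Polr1a (26.8 and 27.4 FPKM in np, against 14.2 and 13.3 FPKM in cyto, 0.93 ± 0.11), Nop56 (206 and 212 FPKM in np, against 142 and 123 FPKM in cyto, 0.66 ± 0.21), Utp20 (30.2 and 31.9 FPKM in np, against 23.4 and 18.2 FPKM in cyto, 0.57 ± 0.15) and Ftsj3, an rRNA methyltransferase of the large subunit (0.53 ± 0.21). Nop16 had the lowest change, with 20.4 and 22.4 FPKM in np, against 61.5 and 60.6 FPKM in cyto (-1.47 ± 0.29). Lower members of other classes were Nhp2, of the H/ACA snoRNP (117 and 142 FPKM in np, against 356 and 346 FPKM in cyto, -1.44), Ubtf, the UBF gene (32.6 and 37.0 FPKM in np, against 72.4 and 70.2 FPKM in cyto, -1.02), and Utp15, a processome component (16.2 and 16.7 FPKM in np, against 31.2 and 29.7 FPKM in cyto, -0.85). After rescaling the split in np was 17 lower and 18 higher, and without single libraries it was 8 to 12 lower and 1 to 3 higher. The call of Utp20 ended without cyto 0 h replicate 2 (adjusted p = 0.065).

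In RNPmesh, the salt-resistant nuclear pellet, members moved in both directions. At 4 h of IAA 13 of 49 fell and 1 rose, where 19.1% of all 12725 tested genes fell and 5.49% rose. At 12 h 20 fell and 3 rose, where 31.6% of all genes fell and 16.3% rose, with medians of -0.31 for the members and -0.23 for all genes. Between 12 and 4 h 0 members fell and 1 rose in limma, with 4 at an unadjusted p under 0.05, where 3.8% of all genes fell and 4.75% rose. By class, 6 of 9 snoRNP genes, 2 of 5 nucleolar proteins, 3 of 6 polymerase I genes, 3 of 18 small subunit genes and 6 of 11 large subunit genes fell at 12 h. At 4 h the largest falls of the classes were those of Polr1c (25.5 and 32.3 FPKM at 4 h, against 63.4 and 68.1 FPKM at 0 h, -1.17), Nop2 (47.0 and 52.9 FPKM at 4 h, against 101 and 117 FPKM at 0 h, -1.11), Gnl3 (57.2 and 65.9 FPKM at 4 h, against 137 and 128 FPKM at 0 h, -1.10) and Nop56 (127 and 148 FPKM at 4 h, against 288 and 295 FPKM at 0 h, -1.09). None of these overlapped between times. At 12 h Noc2l, a large subunit factor that also inhibits histone acetylation, had 80.7 and 74.0 FPKM, against 226 and 240 FPKM at 0 h (-1.58 ± 0.22, adjusted p = 0.000734). Gnl3 had 55.5 and 52.0 FPKM at 12 h, against 137 and 128 FPKM at 0 h (-1.29 ± 0.21, adjusted p = 0.00152). Polr1c had 25.1 and 29.6 FPKM at 12 h, against 63.4 and 68.1 FPKM at 0 h (-1.24 ± 0.22, adjusted p = 0.00204).

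The 3 members that rose in RNPmesh at 12 h were Utp20, Heatr1 and Polr1e. Utp20 had 16.6 and 11.4 FPKM at 0 h, 28.2 and 30.6 at 4 h and 85.2 and 79.2 at 12 h, with no overlap between times. Its change was 1.04 ± 0.23 at 4 h (adjusted p = 0.0146), 2.49 ± 0.23 at 12 h (adjusted p = 0.000153, a 5.62-fold rise on the scale of value + 1) and 1.45 ± 0.23 between 12 and 4 h (adjusted p = 0.0128), where the call ended without either 4 h library (adjusted p = 0.119 and 0.125). Heatr1 had 67.3 and 60.3 FPKM at 12 h, against 37.4 and 24.9 FPKM at 0 h (1.04 ± 0.24, adjusted p = 0.0079). Polr1e had 12.1 and 11.3 FPKM at 12 h, against 8.40 and 7.29 FPKM at 0 h (0.53 ± 0.19, adjusted p = 0.0447). The call for Utp20 at 12 h held without any single library (changes of 2.24 to 2.74). At 4 h it ended without RNPmesh 0 h replicate 2, the library in which the small nucleolar RNA Snord49b took 42.2% of the summed value, or without either 4 h library (changes of 0.79 to 1.09, adjusted p = 0.062 to 0.107). The count of falling members at 4 h was 0 or 1 when RNPmesh 4 h replicate 1 or replicate 2 was left out. It was 10 when the first 0 h library was left out and 5 when Snord49b-rich replicate 2 was. After rescaling 5 fell and 6 rose at 4 h, and 14 fell and 6 rose at 12 h, and the shares of all genes after rescaling are not given here. Across members the change at 12 h was higher in genes with a longer annotated span (Spearman rho 0.637 over 49 members), and this was also so at 4 h (0.574) and for chrRNP minus cyto at 0 h (0.546). In ESC total RNA at 20 h rho was 0.286. Members share the libraries in these descriptions, and the contrasts within RNPmesh share their 0 h libraries.

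In the nuclear gradients, with 1 library per fraction and time, there is no test. FPKM are scaled within the library of each fraction, so the values do not give amounts of RNA per fraction. In fraction 2 Rpph1, its highest transcript, took 29.2% of the summed value at 12 h, against 24.3% at 0 h. The part of this scaling in the shifts below was not tested. Of 3428 genes with a summed value of at least 80 FPKM at both times, 33 were members. The median of their mean fraction number was 5.15 at 12 h of IAA, against 4.72 at 0 h, and 4.98 at 12 h against 4.49 at 0 h for all genes kept. The members' median shift was 0.52, against 0.48 for all genes, and 32 of the 33 had a higher mean fraction number at 12 h, as did 97.0% of all genes. The exception was Nop56 (-0.08), which had 83.4 FPKM in fraction 2 and 27.4 in fraction 9 at 12 h, against 152 and 59.3 FPKM in the same fractions at 0 h. Ncl showed the largest shift, 0.85. Utp20 was at or above 20.2 FPKM in fractions 3 to 9 at 12 h and at 21.7 FPKM in fraction 9, against 10.6 FPKM in fraction 9 at 0 h, where its highest value was 22.5 FPKM in fraction 3. Its shift of 0.51 was close to the median of the members and of all genes kept.

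**Figure D2:**
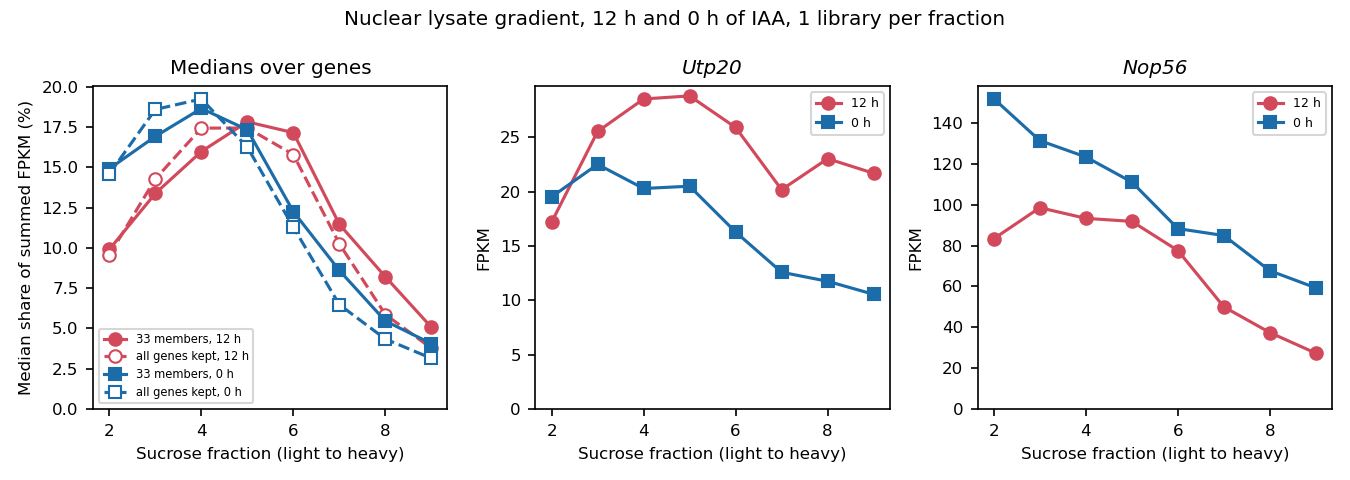
Nuclear sucrose gradient at 12 h (circles) and 0 h (squares) of IAA, with fraction number on the x axis. The left panel gives the median share (percent) of the summed FPKM for 33 members (solid) and all genes kept (dashed), and the other panels give FPKM of Utp20 and Nop56. The mean fraction of the median member was 5.15 at 12 h, against 4.72 at 0 h, and Utp20 was higher at 12 h in every fraction but F2.

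Members were lower after retinoic acid and LIF withdrawal before any IAA. In RAD1 cells at 0 h 48 of 49 were lower than in RAD0 cells, where 19% of all 15408 tested genes were lower and 27.7% higher. The medians were -0.81 for the members and 0.08 for all genes. The median member stood at 32.1 FPKM in RAD1, against 59.6 FPKM in RAD0. Rrp9 had 28.4 and 24.4 FPKM in RAD1, against 70.4 and 76.9 FPKM in RAD0 (-1.45 ± 0.08, adjusted p = 2.35e-06). Utp14a, a processome component, had 9.51 and 9.43 FPKM in RAD1, against 23.0 and 22.004 FPKM in RAD0 (-1.17 ± 0.08, adjusted p = 5.63e-06). The other classes were led by Rrp1b (16.1 and 14.9 FPKM in RAD1, against 34.5 and 34.1 FPKM in RAD0, -1.10), Gnl3 (95.3 and 84.1 FPKM in RAD1, against 192 and 189 FPKM in RAD0, -1.08) and Polr1b, a core subunit of RNA polymerase I (22.3 and 23.3 FPKM in RAD1, against 46.0 and 52.3 FPKM in RAD0, -1.07). Dkc1 was the exception, with 88.5 and 93.8 FPKM in RAD1, against 92.6 and 95.0 FPKM in RAD0 (-0.04 ± 0.05, adjusted p = 0.516), and it was called lower after rescaling, as all 49 then were. The share of all genes called lower after rescaling is not given here. Of 91 other ribosome biogenesis genes 77 were lower and 0 higher. Myc had 6.06 and 6.36 FPKM in RAD1, against 43.6 and 46.1 FPKM in RAD0 (-2.67 ± 0.09, adjusted p = 2.2e-07), and Mycn 4.91 and 2.96 FPKM in RAD1, against 52.2 and 57.2 FPKM in RAD0 (-3.52 ± 0.19). The 6 retinoic acid responsive genes summed to 797 to 803 FPKM in RAD1, against 5.89 to 8.63 FPKM in RAD0, and 4 of 6 endoderm markers reached 1 FPKM in both RAD1 libraries, against 0 in RAD0. The part of such a change of cell state in the members' levels was not tested.

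Without retinoic acid, most members of every class were lower at 20 h of IAA. In RAD0 cells 45 of 49 fell and 1 rose at 20 h, where 33% of all genes fell and 18.4% rose, with medians of -0.56 for the members and -0.13 for all genes. These were 9 of 9 snoRNP genes, 5 of 5 nucleolar proteins, 5 of 6 polymerase I genes, 15 of 18 small subunit genes and 11 of 11 large subunit genes. After rescaling 36 fell and 3 rose, and the shares of all genes after rescaling are not given here. The 8 ESC markers summed to 1616 to 1834 FPKM at 20 h, against 2706 to 2708 FPKM at 0 h, and their part in the members' change was not tested. At 4 h 20 fell and 1 rose, where 13.5% of all genes fell and 5.26% rose. Tcof1 had 21.5 and 21.99 FPKM at 20 h, against 53.8 and 56.6 FPKM at 0 h (-1.30 ± 0.07, adjusted p = 1.29e-06). Nolc1 had 35.5 and 37.8 FPKM at 20 h, against 80.9 and 85.0 FPKM at 0 h (-1.16 ± 0.07, adjusted p = 2.26e-06). The largest falls of the other classes were those of Noc2l (38.8 and 39.7 FPKM at 20 h, against 80.8 and 84.7 FPKM at 0 h, -1.06), Noc4l, a partner of Nop14 in the small subunit (24.1 and 26.3 FPKM at 20 h, against 50.7 and 51.7 FPKM at 0 h, -0.99), and Npm1 (335 and 295 FPKM at 20 h, against 572 and 533 FPKM at 0 h, -0.81). Groups did not overlap for any of these, which their choice as the largest called falls made likely. Utp20 was the member that rose at 20 h, with 53.5 and 51.3 FPKM against 30.7 and 31.9 FPKM at 0 h (0.72 ± 0.05, adjusted p = 6.41e-06). Polr1e (-0.18), Tsr1, a small subunit maturation factor (0.03), and Utp3 (0.03) were not called. At 4 h Nop56 led the falls, with 108 and 108 FPKM against 178 and 166 FPKM at 0 h (-0.67 ± 0.06, adjusted p = 0.000194), and Utp3 was the member that rose, with 39.0 and 37.3 FPKM against 33.3 and 29.8 FPKM at 0 h (0.27 ± 0.07, adjusted p = 0.0252). The count of falls at 4 h was 4 after rescaling, with 3 that rose, and 6 to 9 when single libraries were left out.

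In RAD1 cells members moved both ways after IAA. At 4 h 29 fell and 6 rose, where 32.7% of all genes fell and 18.1% rose. At 20 h 29 again fell and 6 rose, where 33.8% fell and 23.1% rose, with medians of -0.28 for the members and -0.11 for all genes. After rescaling, 18 fell and 11 rose at 4 h, and 24 fell and 11 rose at 20 h, and the shares of all genes after rescaling are not given here. The 6 that rose at 4 h were Utp20 (1.24 ± 0.05), Polr1e (0.42), Tsr1 (0.38), Nop58 (0.29), Rrs1, a large subunit factor (0.22), and Nop14 (0.15). Nop10 had the largest fall at 4 h (-1.16 ± 0.12, adjusted p = 9.43e-05). Nop10 had 28.0 and 37.1 FPKM at 20 h, against 112 and 115 FPKM at 0 h (-1.78 ± 0.12, adjusted p = 4.24e-06). Tcof1 had 12.8 and 11.5 FPKM at 20 h, against 28.5 and 26.0 FPKM at 0 h (-1.11 ± 0.07). Bop1, which forms a complex with Pes1 and Wdr12 in large subunit assembly, had 15.6 and 15.2 FPKM at 20 h, against 31.2 and 29.996 FPKM at 0 h (-0.95). Ncl had 164 and 159.8 FPKM at 20 h, against 300.2 and 274 FPKM at 0 h (-0.82). The 6 that rose at 20 h were Utp20, Polr1e, Nop58, Tsr1, Nop14 and Rrp12. Utp20 had 53.6 and 51.1 FPKM at 20 h and 52.3 and 52.8 FPKM at 4 h, against 21.2 and 22.2 FPKM at 0 h (1.23 ± 0.05 at 20 h, adjusted p = 1.8e-07). Polr1e had 22.4 and 21.9 FPKM at 20 h, against 10.6 and 9.30 FPKM at 0 h (1.08 ± 0.13, adjusted p = 0.000125). Nop58, the partner of Nop56 in box C/D snoRNPs, had 210 and 202 FPKM at 20 h, against 144 and 144 FPKM at 0 h (0.51 ± 0.04, adjusted p = 5.83e-06). Tsr1 changed by 0.45, Nop14, a processome component, by 0.36 and Rrp12, a factor of subunit export, by 0.30.

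The change at 20 h of IAA differed between RAD1 and RAD0 for 27 of the 49 members. In 24 of them the change in RAD1 lay above that in RAD0, where 13.9% of all genes did so, and in 3 (Nop10, Gar1 and Dkc1) it lay below, where 11.6% did. These 3 encode H/ACA snoRNP proteins, and Nhp2, the fourth member of that snoRNP, differed in the other direction (0.62, adjusted p = 0.000712). Of the 27, 10 fell in both and 3 (Nop58, Nop14 and Rrp12) rose in RAD1 and fell in RAD0. The difference was largest for Polr1e (1.26 ± 0.18, adjusted p = 0.00159) and Rrp9 (1.09 ± 0.11, adjusted p = 0.000317). Rrp9 had 26.4 and 28.0 FPKM at 20 h and 28.4 and 24.4 FPKM at 0 h in RAD1, against 34.1 and 36.2 FPKM at 20 h and 70.4 and 76.9 FPKM at 0 h in RAD0. These differences share the 0 h libraries with the comparison of untreated RAD1 and RAD0. The median member stood at 31.9 FPKM in RAD1 and 39.2 FPKM in RAD0 at 20 h. Myc differed as well, with 11.01 and 10.8 FPKM at 20 h against 6.06 and 6.36 FPKM at 0 h in RAD1 (0.72 ± 0.09, adjusted p = 0.00018), and 20.9 and 22.4 FPKM at 20 h against 43.6 and 46.1 FPKM at 0 h in RAD0 (-1.02 ± 0.09, adjusted p = 3.31e-05), and the difference was 1.74 ± 0.13 (adjusted p = 6.63e-05). The RA-responsive genes summed to 149 to 163 FPKM in RAD1 at 20 h, against 797 to 803 FPKM at 0 h. The part of these values in the difference was not tested.

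**Figure D3:**
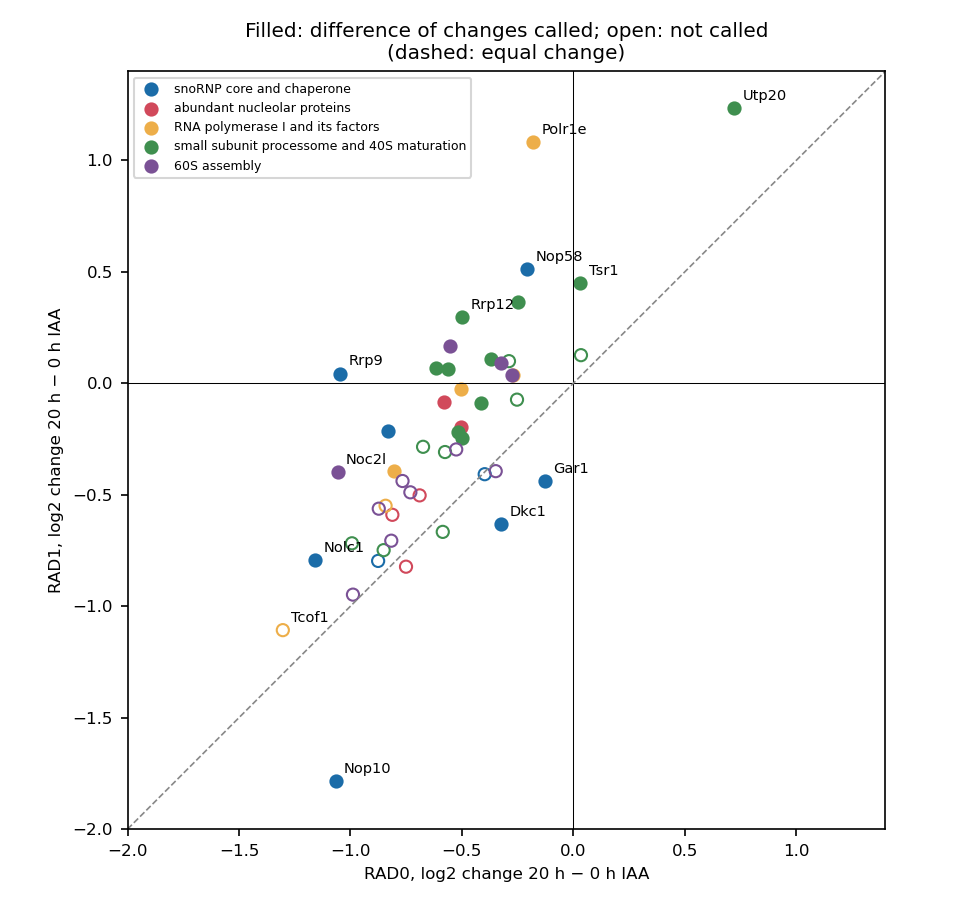
Log2 change at 20 minus 0 h of IAA in RAD1 (y axis) and RAD0 (x axis) for the 49 members, coloured by class. Filled points are the 27 members whose change differed between RAD1 and RAD0, open points those not called, and the dashed line marks equal change. Utp20 (1.23 in RAD1, 0.72 in RAD0) and Polr1e (1.08 in RAD1, -0.18 in RAD0) lie highest and Nop10 (-1.78 in RAD1, -1.07 in RAD0) lowest.

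In iMEFs the response was small. At 4 h of IAA 0 of 49 members were called in limma, with 23 at an unadjusted p under 0.05, where 0.2% of all 12988 tested genes fell and 1.43% rose. These shares are of adjusted calls, and the share of all genes at an unadjusted p under 0.05 is not given here. At 20 h 16 fell and 1 rose, where 22.2% of all genes fell and 5.21% rose, with medians of -0.31 for the members and -0.19 for all genes. Tcof1 had 3.09 and 2.98 FPKM at 20 h, against 5.58 and 5.27 FPKM at 0 h (-0.67 ± 0.10, adjusted p = 0.00603). Npm1 changed by -0.65, Nolc1 by -0.61, Nop16 by -0.55 and Wdr75, a processome component, by -0.47. Utp20 rose, with 14.3 and 12.2 FPKM at 20 h against 9.84 and 9.78 FPKM at 0 h (0.39 ± 0.10, adjusted p = 0.0322), and this call ended without either 0 h library (adjusted p up to 0.154). The count of falls was 2 or 1 when iMEF 0 h replicate 1 or replicate 2 was left out, and 32 or 8 when 20 h replicate 1 or replicate 2 was. After rescaling 10 fell and 3 rose, and the shares of all genes after rescaling are not given here. The 10 fibroblast markers summed to 1754 to 1983 FPKM at 20 h, against 2284 to 2285 FPKM at 0 h, and their part in these changes was not tested.

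Chosen pairs of comparisons were set side by side, and in some of them the order of the members was partly shared between tables with no library in common. Changes after IAA in RAD1 were not among these pairs. The changes at 20 h in ESC total RNA and in RAD0 polyadenylated RNA had a Pearson r of 0.827 and a Spearman rho of 0.804 over the 49 members, and those in ESC total RNA and iMEFs an r of 0.683 and a rho of 0.601. At 4 h ESC total RNA and wcl had an r of 0.879, and ESC total RNA and RAD0 0.752. ESC total RNA and np at 4 h had an r of 0.748, and ESC total RNA and nascent RNA at 4 h an r of -0.062 over 48 members. For np and RNPmesh at 4 h the r was 0.351 and the rho 0.3. Members share libraries within each table, and transcript length and level are the same kind of property in each, so these values are descriptions. Nop2 and Nop56 were called lower in ESC total RNA at 4 and 20 h, in np, in wcl, in RNPmesh at 4 and 12 h, in RAD0 and RAD1 at 4 and 20 h and in iMEFs at 20 h.

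**Figure D4:**
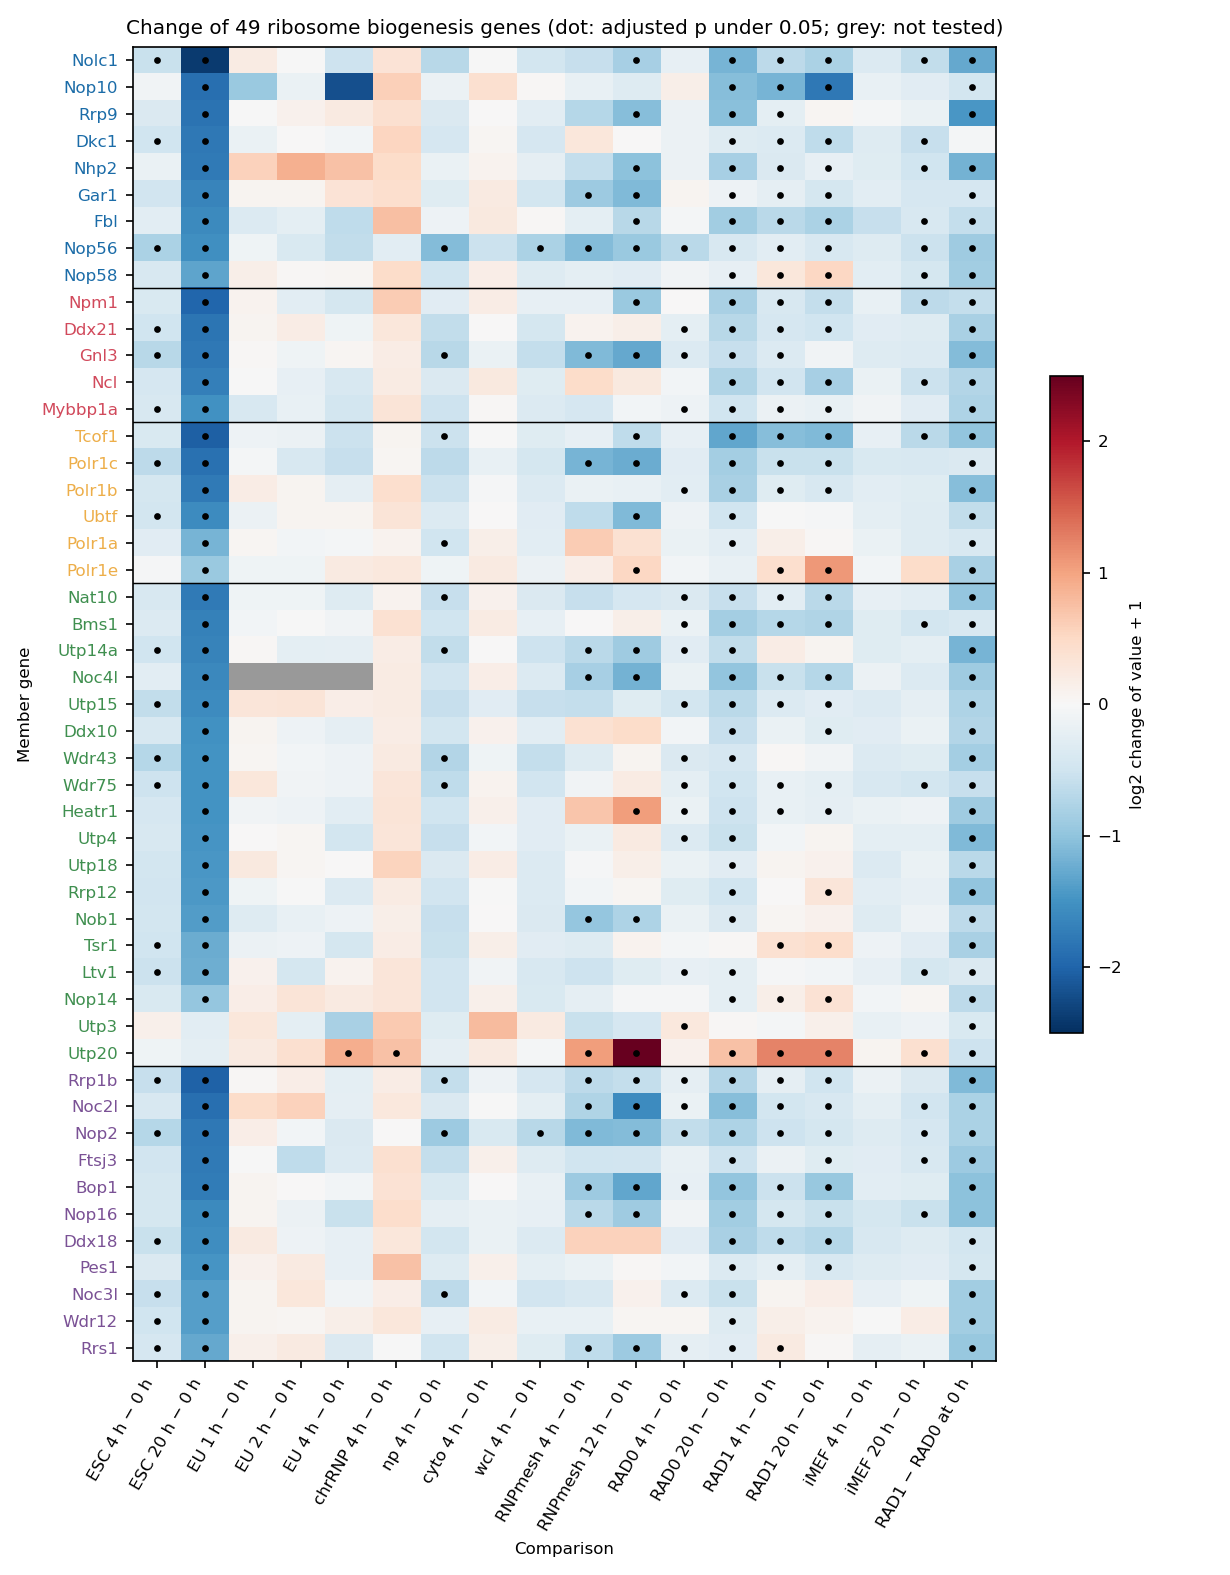
Log2 change of value + 1 (colour, red higher and blue lower) of the 49 members (rows) in 17 comparisons of IAA with 0 h and in RAD1 minus RAD0 at 0 h (columns). Row blocks from top to bottom are snoRNP, nucleolar, RNA polymerase I, small subunit and large subunit genes, and black dots mark calls. The ESC column at 20 h is blue for 47 called members, and Utp20 is the row with most red calls, up to 2.49 in RNPmesh at 12 h.

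Utp20 was thus called higher after IAA in nascent RNA at 4 h, chrRNP at 4 h, RNPmesh at 4 and 12 h, RAD0 at 20 h, RAD1 at 4 and 20 h and iMEFs at 20 h. The calls in nascent RNA, chrRNP, RNPmesh at 4 h and iMEFs ended when certain single libraries were left out. Without the filter, those in nascent RNA, RNPmesh at 4 h and iMEFs also ended, and the nascent call ended with the replicate block too. The calls in RNPmesh at 12 h, RAD0 and RAD1 held in every alternative. In np it had 26.3 and 26.4 FPKM at 4 h, against 30.2 and 31.9 FPKM at 0 h, and in cyto 23.5 and 24.9 FPKM at 4 h, against 23.4 and 18.2 FPKM at 0 h, and neither was called. In wcl it had 25.6 and 25.8 FPKM at 4 h, against 25.85 and 27.2 FPKM at 0 h, without a call. Nor did limma call it in ESC total RNA at 4 and 20 h, nascent RNA at 1 and 2 h, RAD0 at 4 h or iMEFs at 4 h. Without IAA it was lower in RAD1 than in RAD0 at 0 h (-0.51 ± 0.05, adjusted p = 5.31e-05). No other annotated gene of the tables overlapped Utp20.

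**Figure D5:**
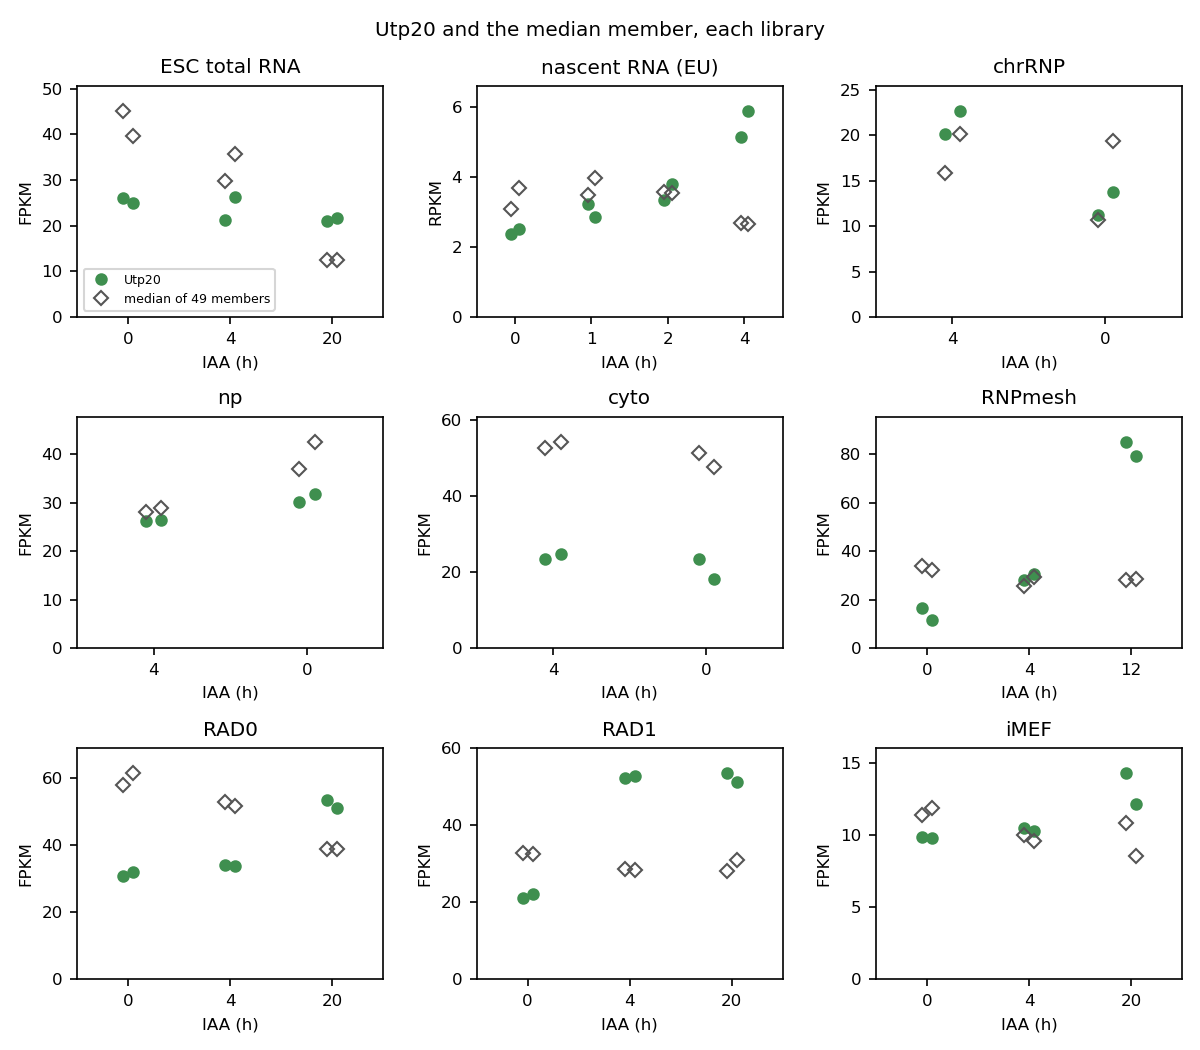
Utp20 (filled circles) and the median of the 49 members (open diamonds) in each library, by hours of IAA (x axis) and FPKM, or RPKM for nascent RNA (y axis, from 0). In RNPmesh Utp20 reached 85.2 and 79.2 FPKM at 12 h, and in ESC total RNA it stayed between 21.0 and 26.3 FPKM at all 3 times while the median member was at 12.6 and 12.5 FPKM at 20 h.

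Reads of overlapping genes may be shared, since the strand used in counting was not given in the sources used here. Such overlaps covered, among others, 2319 bases of Polr1e (with Fbxo10), 2984 of Tsr1 (with Srr), 12804 of Pes1 (with 4930556J24Rik), 1760 of Nop14 (with an antisense transcript) and 2631 of Polr1a (with an antisense transcript). They also covered 5662 bases of Utp14a (with the long noncoding RNA 9530027J09Rik) and 2031 of Bop1 (with Scx). The annotated spans of 7 members (Nop56, Nop58, Dkc1, Ncl, Gnl3, Wdr43 and Tsr1) held 21 annotated snoRNAs, of which 10 were tested in the table of fractions. Whether these lie in introns was not checked. In untreated cells 5 of the 10 were higher in chrRNP than in cyto, where 14.3% of all genes were higher. These 5 differences ran from 5.38 (Snora75) to 14.9 (Snord82), and the levels behind them are not given here. The host genes were lower in chrRNP, but after rescaling Ncl, Nop56, Nop58 and Tsr1 were higher. The snoRNAs are 133 bases or shorter in these 10, and reads of the host transcripts could not be separated from theirs.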

How the data were processed

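The values are those the authors deposited for 70 libraries in 7 tables. Per the submitters' processing notes, the authors' FPKM rest on the build mm10, Cufflinks 2.0.2 and TopHat2 2.0.11, and the deposited RPKM of nascent RNA count reads over whole gene spans. H3K27ac peaks were deposited as positions only, and the notes name Bowtie2 2.2.6 and MACS2. Strand, spike-in scaling and FPKM depth were not given in the sources used here. Nascent steps gave back 4489760 to 9255588 reads a library, with 76.3 to 86.2% of values within 0.05 of a whole read. Of the recovered non-zero counts, 94 to 96.3% were even.

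Genes that reached a value of 1 in at least 2 libraries were tested on log2(value + 1) by limma 3.58.1 with a mean-variance trend (R 4.3.3 and version 1.17.8 of data.table), with all groups of a table in one model, 25 contrasts and Benjamini-Hochberg adjustment within each at 0.05. The limma script was tested on simulated data. Python 3.11.15 with numpy 2.4.6, pandas 2.3.3, scipy 1.17.1 and matplotlib 3.10.9 did the rest. Alternatives were a pseudocount of 0.1, no filter, no trend, libraries rescaled to a common median gene, a replicate block, each library left out, and limma-voom for nascent reads. A peak counted as near a start within 1000 bases. Library values were given for the called member of each class with the largest change and for members not called or called the other way where these were few, and the 3 genes with the smallest p were taken from the other lists. The members and lists were chosen with earlier results of these data known.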

Additional observations from a re-analysis of the deposited data

Results flagged for a closer look

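The change at 20 h of IAA in RAD1 minus that in RAD0 was tested as a difference between both changes in limma, and 27 members passed an adjusted p under 0.05. In the snoRNP class the difference was 1.09 for Rrp9, 0.72 for Nop58, 0.62 for Nhp2, 0.36 for Nolc1, -0.31 for Dkc1, -0.31 for Gar1 and -0.72 for Nop10. Among nucleolar proteins it was 0.50 for Gnl3 and 0.31 for Mybbp1a. In the RNA polymerase I class it was 1.26 for Polr1e, 0.48 for Ubtf, 0.41 for Polr1b and 0.31 for Polr1a. In the small subunit class it was 0.79 for Rrp12, 0.68 for Utp14a, 0.62 for Utp4, 0.61 for Nop14, 0.51 for Utp20, 0.48 for Nob1, 0.42 for Tsr1, 0.33 for Wdr43, 0.30 for Heatr1 and 0.26 for Wdr75. In the large subunit class it was 0.72 for Noc3l, 0.66 for Noc2l, 0.42 for Wdr12 and 0.31 for Rrs1. The count was 2 to 3 negative and 18 to 23 positive differences when single libraries were left out.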

How the results depend on the processing

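For 85 named results of 32 genes, 678 of 790 alternatives kept direction and side of the threshold, 111 kept the direction but lost the call, and 1 reversed, Utp20 in chrRNP minus cyto at 0 h (0.68 after rescaling). The counts of falling members that moved by over 1.5 times were as follows, and the cause was not tested. The counts in this paragraph are given without the share of all genes under the same setting, so they do not set members apart. Rescaling gave 3 in ESCs at 4 h, 3 in chrRNP, 2 in cyto, 4 in wcl, 5 in RNPmesh at 4 h, 1 between 12 and 4 h, 4 in RAD0 at 4 h, 18 in RAD1 at 4 h and 10 in iMEFs at 20 h, and in untreated cells 29 lower and 10 higher in chrRNP minus cyto and 18 higher in np minus cyto. Without the filter the count was 0 in ESCs at 4 h, 1 in wcl, 1 for the difference of np minus cyto, 7 in RNPmesh at 4 h and 6 in iMEFs at 20 h. A pseudocount of 0.1 gave 1 in wcl, limma without trend gave 1 between 12 and 4 h in RNPmesh and 9 in RAD0 at 4 h, and limma-voom gave 2 in nascent RNA at 4 h. The replicate block gave 3 in ESCs at 4 h, 18 in np, 8 in RNPmesh at 4 h and 13 in RAD0 at 4 h. Same-numbered libraries deviated together only weakly, with correlations of -0.145 to 0.145, so the numbers were not taken as pairs. Leaving out single libraries gave 0 to 41 in ESCs at 4 h, 47 to 47 at 20 h, 46 to 48 between them, 1 to 3 in np, 0 to 0 in wcl, 8 to 12 lower and 1 to 3 higher in np minus cyto, 0 to 23 higher for the difference of chrRNP minus cyto, 0 to 10 in RNPmesh at 4 h and 14 to 19 at 12 h, 6 to 9 in RAD0 at 4 h and 42 to 44 at 20 h, 23 to 27 in RAD1 at 4 h and 27 to 29 at 20 h, 45 to 48 in RAD1 minus RAD0, and 1 to 32 in iMEFs at 20 h. With equal fraction totals the median gradient shift of the members was 0.48, and without fraction 2 or 9 it was 0.40 and 0.50. Peaks within 500 bases lay at 40 members at 4 h and 37 at 0 h, and within 2000 bases at 41 and 38. With 2 libraries a group and unknown FPKM depth, changes that were not called are not shown to be absent, at any level of expression.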
